A study of Mus musculus with 8 samples.

Results

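The genes described here make, regulate and remove cholesterol: Hmgcs1, Idi1, Fdft1, Sqle and Cyp51, which encode enzymes of cholesterol synthesis, Insig1, which encodes a sensor that restrains it, and Cyp46a1, which encodes the enzyme that removes cholesterol from neurons. These 7 genes were listed by symbol, and each matched 1 row among the 55536 genes of the count table. They were measured by RNA-seq of total RNA, depleted of ribosomal RNA, from the frontal cortex of 8-week-old mice. WT mice gave 4 libraries and HAR123-KO mice another 4. In the latter, HAR123, an enhancer lying in an intron of the SMG6 gene, had been removed from the germ line with CRISPR-Cas9, so that it was missing from every cell type. Both genotypes were on the C57BL/6J background with no other allele or treatment, the WT mice were littermates, and the sources used here do not give the sex of the sequenced animals, their founder line or whether tissue was pooled. The question asked of the cholesterol genes was whether loss of the enhancer changed their RNA in this tissue.

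Cholesterol in the brain is made there, because the lipoproteins of the blood do not cross the blood-brain barrier. Synthesis starts from acetyl-CoA, passes through mevalonate and the isoprenoids to squalene, and continues through the sterols from lanosterol to cholesterol. When membrane cholesterol falls, SCAP carries SREBP2, the product of Srebf2, to the Golgi, where it is cut into an active transcription factor that turns on the synthesis and uptake genes, whereas INSIG1 holds SCAP back when sterols are plentiful. Myelinating oligodendrocytes and astrocytes are known for high synthesis, and neurons for CYP46A1, which turns cholesterol into 24S-hydroxycholesterol that can leave the brain. Although uptake genes belong to this biology, none is among the 7, and they were read from a wider list of 63 pathway genes (the 7 included).

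Promoter letters are shown first, because SREBP2 is known to act on most of these genes through short sites near their starts. RefSeq promoter windows of GRCm38.p6, which run from 250 bases before to 50 bases after a start, were found for 5 of the 7 genes, Sqle and Fdft1 not being among them. Below are the bases that lie before both the RefSeq and the GENCODE start of 4 genes, 5′ to 3′ on the strand of the gene, with capitals marking a searched motif on either strand. The windows lie at chr13:119690101-119690350 (plus strand) for Hmgcs1, chr5:4104747-4104947 (minus strand) for Cyp51, chr5:28071162-28071362 (plus strand) for Insig1 and chr12:108334066-108334315 (plus strand) for Cyp46a1.
Hmgcs1: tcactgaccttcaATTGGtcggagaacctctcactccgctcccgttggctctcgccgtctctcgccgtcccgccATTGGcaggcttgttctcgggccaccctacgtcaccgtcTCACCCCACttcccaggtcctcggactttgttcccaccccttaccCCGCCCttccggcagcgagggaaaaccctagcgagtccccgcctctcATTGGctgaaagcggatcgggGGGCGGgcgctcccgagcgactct
Cyp51: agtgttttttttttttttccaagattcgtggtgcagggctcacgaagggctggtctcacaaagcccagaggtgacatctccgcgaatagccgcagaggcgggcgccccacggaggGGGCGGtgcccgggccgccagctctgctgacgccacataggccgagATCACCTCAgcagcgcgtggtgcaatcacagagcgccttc
Insig1: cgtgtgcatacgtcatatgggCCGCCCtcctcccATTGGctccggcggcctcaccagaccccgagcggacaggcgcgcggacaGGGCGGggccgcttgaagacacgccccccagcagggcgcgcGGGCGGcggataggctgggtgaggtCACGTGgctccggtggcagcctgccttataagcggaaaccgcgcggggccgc
Cyp46a1: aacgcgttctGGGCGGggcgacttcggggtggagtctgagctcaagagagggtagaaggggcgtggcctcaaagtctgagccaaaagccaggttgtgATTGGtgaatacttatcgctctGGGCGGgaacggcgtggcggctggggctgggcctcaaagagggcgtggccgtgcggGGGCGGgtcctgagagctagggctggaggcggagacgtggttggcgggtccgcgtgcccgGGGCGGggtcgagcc

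Searched on both strands were the sterol regulatory element forms TCACNCCAC and ATCACNNCA, the E-box CACGTG, which SREBPs can also bind, the CCAAT box and the GC box GGGCGG. Hmgcs1 held the first form as TCACCCCAC, 137 bases before the RefSeq start, with CCAAT boxes 237, 176 and 45 bases before it. Cyp51 held the second form as ATCACCTCA, 89 bases before the start, and Insig1 held the E-box 101 bases before it. In Cyp46a1 none of these 3 sterol-type motifs was found, and its capitals are 4 GC boxes and 1 CCAAT box. Of all 32851 RefSeq windows, 1.24% held the first form, 2.77% the second and 7.15% the E-box. CCAAT boxes and GC boxes were each found somewhere in the full windows of all 5 genes, against 37.4% and 35.7% of all windows. Idi1 held neither sterol element form nor the E-box in its window. A match is a string of letters and no sign of binding, and a missing match concerns these letters in this window only.

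Total counts ran from 13528251 to 17051001 per library, but Gm42418, which holds ribosomal RNA sequence, took 55.1% to 58% of them, and nuclear protein-coding genes received 2786320 to 3732172. Mitochondrial ribosomal RNA was at 9.24% to 9.69% in WT and 10% to 10.9% in HAR123-KO. Libraries of 1 genotype differed by more than sampling noise in all 12 pairs (chi-square per degree of freedom from 1.21 to 1.31) and were kept as separate replicates. HAR123-KO replicate 4 stood apart in the share of Gm42418, 57.4% against 55.1% to 55.7%, and without it 0 of the 7 genes were called. As the labels do not say that libraries came from separate animals, p-values measure the spread between these libraries.

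The 7 genes differed widely in level, and the order was the same in both genotypes. Counts were divided by median-of-ratios size factors (normalized counts) and, for comparisons between genes, by exon length in kb. In WT, Hmgcs1, the enzyme that condenses acetyl-CoA with acetoacetyl-CoA to HMG-CoA, had the highest level at 216 ± 2.27 normalized counts per kb (SD, n = 4). Cyp46a1 followed at 170 ± 7.08 and Insig1 at 71.0 ± 1.34 (SD, n = 4). The lower group was made up of Fdft1 at 46.4 ± 3.4, Cyp51 at 43.6 ± 3.08, Idi1 at 38.8 ± 2.2 and Sqle at 33.8 ± 1.9 normalized counts per kb (SD, n = 4), so that the WT level of Hmgcs1 was 6.41 times that of Sqle. Over all 8 libraries, the ranges of Hmgcs1, Cyp46a1, Insig1 and Fdft1 did not touch each other. Fdft1 overlapped with Cyp51, and Cyp51 with Idi1, so their order is not separated by the spread. Idi1 (lowest 36.5) lay just above Sqle (highest 35.7). The HAR123-KO means ran in the same order, from 199 ± 5.62 for Hmgcs1 to 31.2 ± 1.31 normalized counts per kb for Sqle (SD, n = 4).

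**Figure D1:**
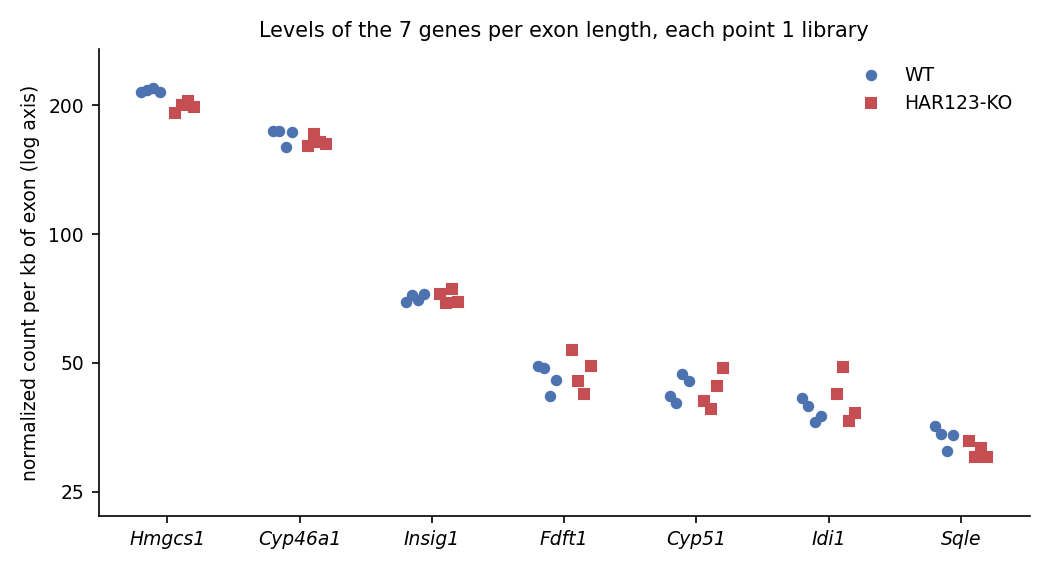
Normalized count per kb of exon (log axis) of the 7 genes, ordered by mean level, with WT libraries as circles and HAR123-KO libraries as squares. Hmgcs1 (191 to 219) and Cyp46a1 (159 to 174) stand above the rest, and Fdft1, Cyp51 and Idi1 overlap.

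Loss of HAR123 was tested with the Wald test of DESeq2 on all genes, and a gene was called at an adjusted p under 0.05. None of the 7 genes was called, against 1.69% of the 12758 genes tested (0.972% called higher and 0.713% called lower in HAR123-KO). With the added limit of the study's frontal cortex gene list, an absolute log2 fold change over 0.5, the share of all genes was 0.298%, and again 0 of the 7 passed. All 7 received an adjusted p. At an unadjusted p under 0.05 there was 1 gene, Hmgcs1, against 8.78% of all genes tested, and 0 were called by edgeR's quasi-likelihood test or limma-voom. The median log2 fold change of the 7 was -0.02, beside -0.00 (-0.00174) over all genes tested. The 95% intervals of the 7 fold changes together ran from 0.813 to 1.25, and an adjusted p above the threshold does not show that the levels were equal. In bulk tissue, fewer cells of a type and less RNA per cell cannot be told apart.

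**Figure D2:**
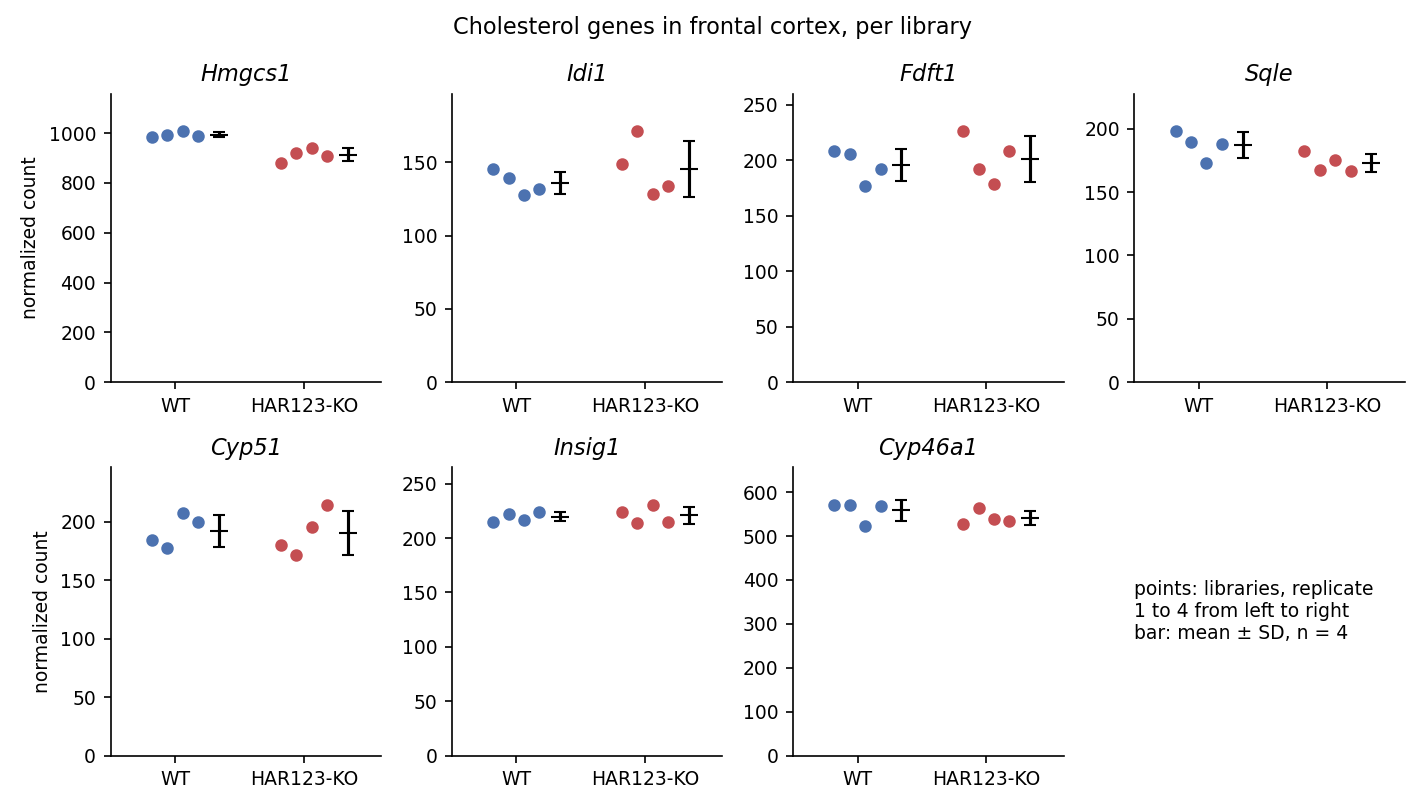
Normalized count of each of the 7 genes in every library, from 0, with WT in blue and HAR123-KO in red, points ordered by replicate number, and bars for the mean ± SD (n = 4). In Hmgcs1 alone the genotypes do not overlap (WT 985 to 1008, HAR123-KO 879.5 to 941 normalized counts).

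Hmgcs1 (ENSMUSG00000093930, GRCm38 chromosome 13, 119690379 to 119708260, plus strand) makes HMG-CoA and carried the sterol element shown above. The WT libraries had 985, 994.5, 1008 and 987 normalized counts, and the HAR123-KO libraries 879.5, 921, 941 and 909. Every HAR123-KO library lay below every WT library, with a gap of 44 normalized counts, and 7.67% of all genes tested were separated in this way. The means were 994 ± 10.4 and 913 ± 25.8 (SD, n = 4), a log2 difference of -0.12 ± 0.04 (SE), that is 8.13% lower with a 95% interval from 2.57% to 13.4%. The unadjusted p was 0.00467 and the DESeq2 adjusted p 0.17, so the difference did not pass over all genes. Its adjusted p was 0.0799 by edgeR and 0.0661 by limma-voom, and over all 16 fits it ran from 0.0661 to 1. The WT spread of 1.05% was smaller than the 3.18% that counting error alone gives at this depth, so the 4 WT values lie closer together than their precision. The same held in WT for 6 of the 7 genes, all but Fdft1, and in HAR123-KO for 4, Hmgcs1, Sqle, Insig1 and Cyp46a1. The ratio of Hmgcs1 to Srebf2 counts within a library, not divided by length and so comparable only between libraries, was 1.05 to 1.16 in WT and 0.974 to 1.07 in HAR123-KO, which overlap. Astrocyte markers, as a summed list, were 0.932 times and oligodendrocyte markers 1.12 times the WT level in HAR123-KO, and their part in the Hmgcs1 values was not tested.

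Idi1 (ENSMUSG00000058258, chromosome 13, 8885501 to 8892451, plus strand) encodes the isomerase that interconverts the isoprenoid building blocks. WT libraries had 145, 139, 128 and 132 normalized counts, and HAR123-KO libraries 148.5, 171, 128.5 and 134. Only HAR123-KO replicates 1 and 2 lay above the WT range. The log2 fold change was 0.10 ± 0.11 (SE, adjusted p = 0.919 in DESeq2), with a 95% interval from -0.12 to 0.32. Without HAR123-KO replicate 2, the highest of the 8 values, it was 0.01. Its between-library spread in HAR123-KO, 13.1%, was the widest of the 7.

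Fdft1 (ENSMUSG00000021273, chromosome 14, 63145150 to 63179578, minus strand) encodes squalene synthase, which commits isoprenoids to sterols. Its WT values were 208, 206, 177 and 193 normalized counts, and the HAR123-KO values 226, 192, 179 and 208. The genotypes overlapped over most of their ranges. DESeq2 gave a log2 fold change of 0.04 ± 0.10 (SE, adjusted p = 0.984), with an interval from -0.15 to 0.23. The sign turned without WT replicate 3 (-0.01) or HAR123-KO replicate 1 (-0.02).

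Sqle (ENSMUSG00000022351, chromosome 15, 59315077 to 59331192, plus strand) encodes squalene epoxidase, which uses oxygen in a slow step of the sterol arm. WT libraries had 198, 189, 173 and 188 normalized counts, and HAR123-KO libraries 182, 167, 175 and 167. WT replicate 3 lay inside the HAR123-KO range and the other 3 WT libraries above it. The log2 fold change was -0.11 ± 0.10 (SE, adjusted p = 0.872 in DESeq2), close in size to that of Hmgcs1 but with an interval from -0.30 to 0.08.

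Cyp51 (ENSMUSG00000001467, chromosome 5, 4081145 to 4104746, minus strand) encodes lanosterol demethylase. Counts were 185, 178, 208 and 200 in WT and 180, 172, 195 and 215 in HAR123-KO (normalized). Both the lowest and the highest of the 8 values were HAR123-KO libraries. The log2 fold change of -0.02 ± 0.10 (SE) had a DESeq2 adjusted p of 0.995 and an interval from -0.21 to 0.17. It was above 0 without WT replicate 3 (0.02), HAR123-KO replicate 1 (0.01) or HAR123-KO replicate 2 (0.03).

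Insig1 (ENSMUSG00000045294, chromosome 5, 28071363 to 28078662, plus strand) is itself a known SREBP target as well as the brake on SREBP processing. WT values were 215, 222, 217 and 224 normalized counts, and HAR123-KO values 224, 214, 231 and 215. The genotypes were intermixed. The log2 fold change was 0.01 ± 0.09 (SE, adjusted p = 0.995 in DESeq2), with an interval from -0.16 to 0.18. Leaving out HAR123-KO replicate 3 gave -0.01. Insig2, the related gene of the same brake, stood at 107 ± 14.9 (WT) and 101 ± 14.4 (HAR123-KO) normalized counts (SD, n = 4), a difference on the log2 scale of -0.08 ± 0.13 (SE, adjusted p = 0.962 in DESeq2). Leaving out 1 library moved it between -0.02 (without HAR123-KO replicate 1) and -0.18 (without HAR123-KO replicate 3).

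Cyp46a1 (ENSMUSG00000021259, chromosome 12, 108334381 to 108362234, plus strand) encodes cholesterol 24-hydroxylase. WT libraries had 571, 571, 524 and 568 normalized counts, and HAR123-KO libraries 527, 563, 538 and 534. WT replicate 3 stood apart below the other WT libraries and below all 4 HAR123-KO libraries, whereas the other 3 lay above every HAR123-KO library. The means of 558.5 ± 23.3 and 540.5 ± 15.6 (SD, n = 4) gave a log2 fold change of -0.04 ± 0.06 (SE, adjusted p = 0.945 in DESeq2) with an interval from -0.15 to 0.07. Without WT replicate 3 the log2 fold change was -0.08 (adjusted p = 0.843 in DESeq2).

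How counts were assigned bears on some of these values, since the strand setting of the counting is not given in the sources used here. Fdft1 shares 774 exon bases, 18.31% of its exons, with Ctsb on the opposite strand, and Cyp51 shares 166 bases, 3.76%, with Akap9. The opposite-strand genes over Hmgcs1 (557 shared exon bases, 12.12%) and Idi1 (323 bases, 9.22%) had no counts in any library. Whether reads in shared bases were left uncounted was not tested for any of these genes. Sequence copies of at least 95% identity over at least 100 bases covered 33.7% of the longest coding transcript of Fdft1 (1 pseudogene), 22.6% of that of Idi1 (2 pseudogenes) and 7.01% of that of Insig1 (1 pseudogene). For Hmgcs1, Sqle, Cyp51 and Cyp46a1 no such copy was found outside the gene. As far as copies go, counts of Fdft1 and Idi1 are therefore less certain as to their source than those of the others.

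The rest of the pathway was read from 6 lists holding 63 genes, of which 55 received an adjusted p. One gene, Clu, was called, and 28 of the 55 were higher and 27 lower in HAR123-KO. The median log2 fold change was 0.00 (0.000755). The share called, 1 of 55, is close to the 1.69% over all genes tested. At an unadjusted p under 0.05 there were 7 of the 55, 3 higher and 4 lower, beside 8.78% of all genes tested. Of the 55, 4 were separated between genotypes, Hmgcs1, Clu, and Mvd and Abcg1, the last pair named after their values were seen, and the share over all genes tested was 7.67%.

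**Figure D3:**
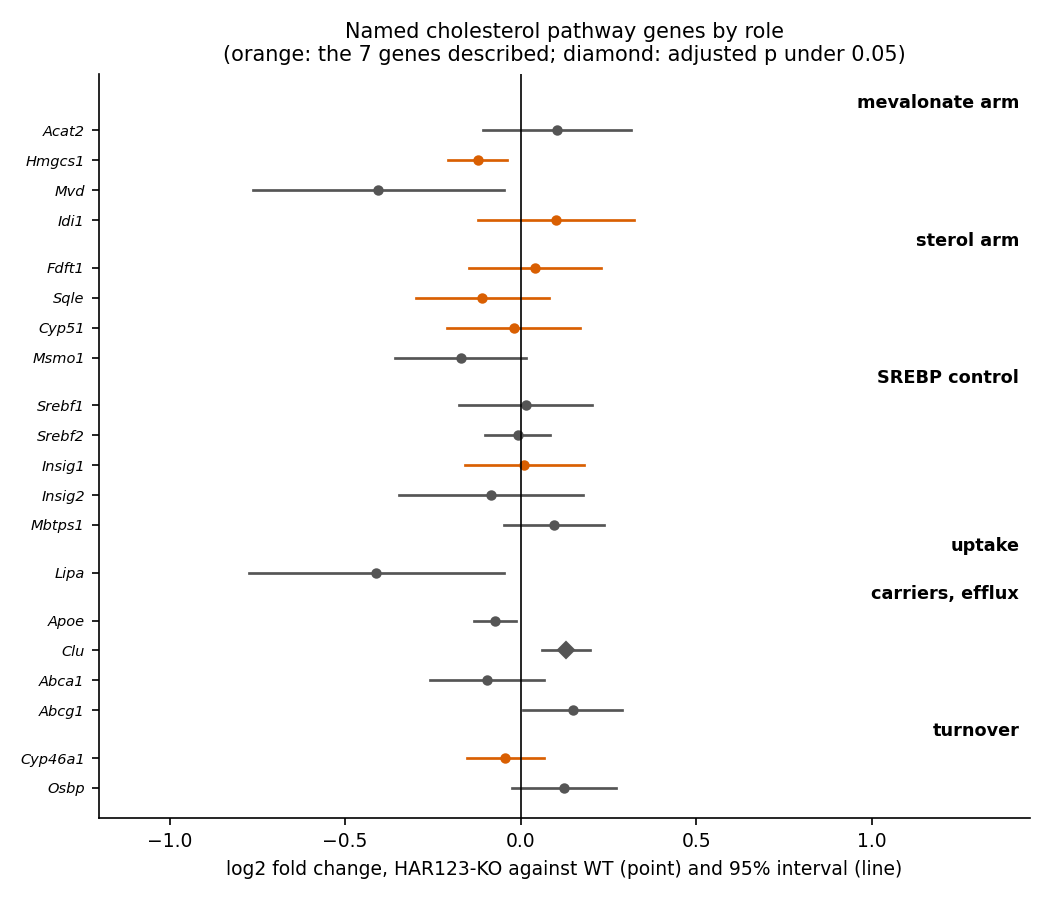
Log2 fold change of HAR123-KO against WT with its 95% interval for pathway genes named in the text that received an adjusted p, grouped by role, with the described genes in orange and a diamond for an adjusted p under 0.05. The intervals of the 7 genes lie near 0, and Clu (log2 fold change 0.13) is the single diamond.

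In the mevalonate arm, 0 of 7 genes with an adjusted p were called. The summed arm was lower in HAR123-KO, at 1776 to 1837 against 1846 to 1913 normalized counts, and Hmgcs1 made up 49.5% to 54.6% of it. Without Hmgcs1 the sums overlapped, at 870 to 916 in HAR123-KO and 839 to 928 in WT. Mvd, which makes isopentenyl diphosphate and was named after its values were seen, had a log2 fold change of -0.41 ± 0.18 (SE, unadjusted p = 0.0264, DESeq2 adjusted p = 0.439).

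The sterol arm had 13 of 13 genes with an adjusted p and none called, 0 also at an unadjusted p under 0.05. Its smallest unadjusted p, 0.0724, was that of Msmo1, which removes methyl groups from the sterol ring, with a log2 fold change of -0.17 ± 0.09 (SE, adjusted p = 0.628 in DESeq2). For Msmo1 this was -0.11 without WT replicate 2 and -0.24 without HAR123-KO replicate 3. Summed over the arm, WT libraries held 1880 to 1951 and HAR123-KO libraries 1883 to 1975 normalized counts.

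Among the genes of SREBP control, 0 of 10 were called and 0 had an unadjusted p under 0.05. Srebf2 gave 916, 860, 957 and 872 normalized counts in the WT libraries and 848, 946, 883 and 912.5 in HAR123-KO. Its groups overlapped, with a log2 fold change of -0.01 ± 0.05 (SE, adjusted p = 0.995 in DESeq2) and an interval from -0.10 to 0.08. Srebf1, whose product favours fatty acid synthesis, gave 0.01 ± 0.10 (SE, adjusted p = 0.995 in DESeq2). Mbtps1, the first of the proteases that cut SREBPs, had the smallest unadjusted p of the list, 0.196, with a log2 fold change of 0.09 ± 0.07 (SE). That of Mbtps1 was 0.06 without WT replicate 1 and 0.12 without HAR123-KO replicate 3. SREBPs are controlled mainly by the cutting of the protein, which RNA does not report.

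Uptake genes gave 0 calls among 12 with an adjusted p. Lipa, which frees cholesterol in lysosomes, had the smallest p of the list, with 63.05, 73.1, 49.99 and 56.7 normalized counts in WT and 37.9, 54.2, 48.4 and 40.4 in HAR123-KO. The groups overlapped, and the log2 fold change was -0.41 ± 0.18 (SE, unadjusted p = 0.0264, DESeq2 adjusted p = 0.439).

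Carriers and efflux genes held the 1 call among 9 with an adjusted p. Clu encodes clusterin, a lipid-carrying apolipoprotein made by astrocytes and by choroid plexus. The WT libraries held 1679, 1610, 1656 and 1586 normalized counts, and the HAR123-KO libraries 1809, 1754, 1845 and 1729. All 4 HAR123-KO libraries were above all 4 WT libraries, and Clu rose by a log2 fold change of 0.13 ± 0.03 (SE, adjusted p = 0.0179 in DESeq2). The call was lost without WT replicate 2 (adjusted p = 0.165), WT replicate 4 (0.125), HAR123-KO replicate 1 (0.105) or HAR123-KO replicate 3 (0.242). In these 4 fits the log2 fold change was 0.11 to 0.12. The call was also lost with the replicate number as a block (log2 fold change 0.13) and under the fold limit of 0.5. Summed choroid plexus markers were 7.78 times (3.46 times without Ttr, which made up most of the sum) and astrocyte markers 0.932 times the WT level, and their part in the rise was not tested. Apoe, the main lipid carrier of astrocytes, had the highest level per exon length of the 63 pathway genes, 1220 ± 21.2 normalized counts per kb in WT (SD, n = 4). Its normalized counts were 2550 to 2660 in WT and 2395 to 2562 in HAR123-KO, which overlap. For Apoe the unadjusted p was 0.0154 and the DESeq2 adjusted p 0.348, at -0.07 ± 0.03 (SE) on the log2 scale. Abca1, the pump that loads cholesterol onto apolipoproteins, had a log2 fold change of -0.10 ± 0.08 (SE, adjusted p = 0.867 in DESeq2). It was -0.06 without WT replicate 4 and -0.14 without WT replicate 3.

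Beside Cyp46a1, the turnover list had 3 other genes with an adjusted p and none called. The smallest p belonged to Osbp, an oxysterol-binding lipid exchanger, with a log2 fold change of 0.12 ± 0.08 (SE, adjusted p = 0.704 in DESeq2). Cyp27a1, Cyp39a1, Ch25h and Soat2 were too low to receive one, with means of 12.3 normalized counts or less in either genotype, and these 4 were named after their values were seen.

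Fatty acid synthesis is the sister branch under SREBP1, and 1 of 10 genes of this comparison list was called, against 1.69% of all genes tested. Scd1, which desaturates stearate, gave 566, 564, 573 and 673 normalized counts in the WT libraries and 746, 722, 791 and 775 in HAR123-KO. The groups did not overlap, and Scd1 rose by a log2 fold change of 0.35 ± 0.06 (SE, adjusted p = 6.47e-08 in DESeq2). WT replicate 4 was the high WT value, and without it the log2 fold change was 0.42, adjusted p = 3.22e-10 in DESeq2. With the replicate number as a block it was 0.36 and the call was lost (adjusted p = 0.0974 in DESeq2). Scd1 also lies under the fold limit of 0.5. Oligodendrocyte markers, summed, were 1.12 times the WT level, and their part was not tested. Of the other 9 genes, none was called, and Scd2, a related gene named after its values were seen, had a log2 fold change of -0.01 ± 0.02 (SE). Across the list, 6 genes were higher and 4 lower in HAR123-KO. An unadjusted DESeq2 p under 0.05 was given to 2 of 10, both higher, beside 8.78% of all genes tested. The genotypes were separated in 2 of 10, against 7.67% of all genes tested. Summed counts, Scd1 included, did not overlap, at 9220 to 9411 in HAR123-KO and 9030 to 9165 in WT.

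Markers of cell types and of neighbouring tissue moved with genotype, and these values stand beside every result above. Cortical excitatory markers were present in all libraries and their summed counts were 5784 to 6142 in HAR123-KO against 6369 to 6612 in WT, with 2 of 8 called lower. Striatal markers were 1.3 times as high in HAR123-KO (9 of 10 called higher). Choroid plexus markers were at 709 to 750 normalized counts against 85.6 to 101 (2 of 8 called higher, Ttr and Kl, the only 2 with an adjusted p, and 7 of 8 separated). Astrocyte markers, of the cells known to make and carry cholesterol, were at 22020 to 22580 against 23640 to 24380 (3 of 10 called lower). Oligodendrocyte markers were 17970 to 18300 against 15890 to 16390 (4 of 10 called higher), and precursor markers 1.03 times as high (0 of 5 called). Endothelial markers were at 327.5 to 351 against 410 to 461 (1 of 7 called lower). For neurons, the summed counts overlapped (0 of 10 called), as did those for microglia (0 of 7). The part of these shifts in the values of Apoe was not tested either.

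**Figure D4:**
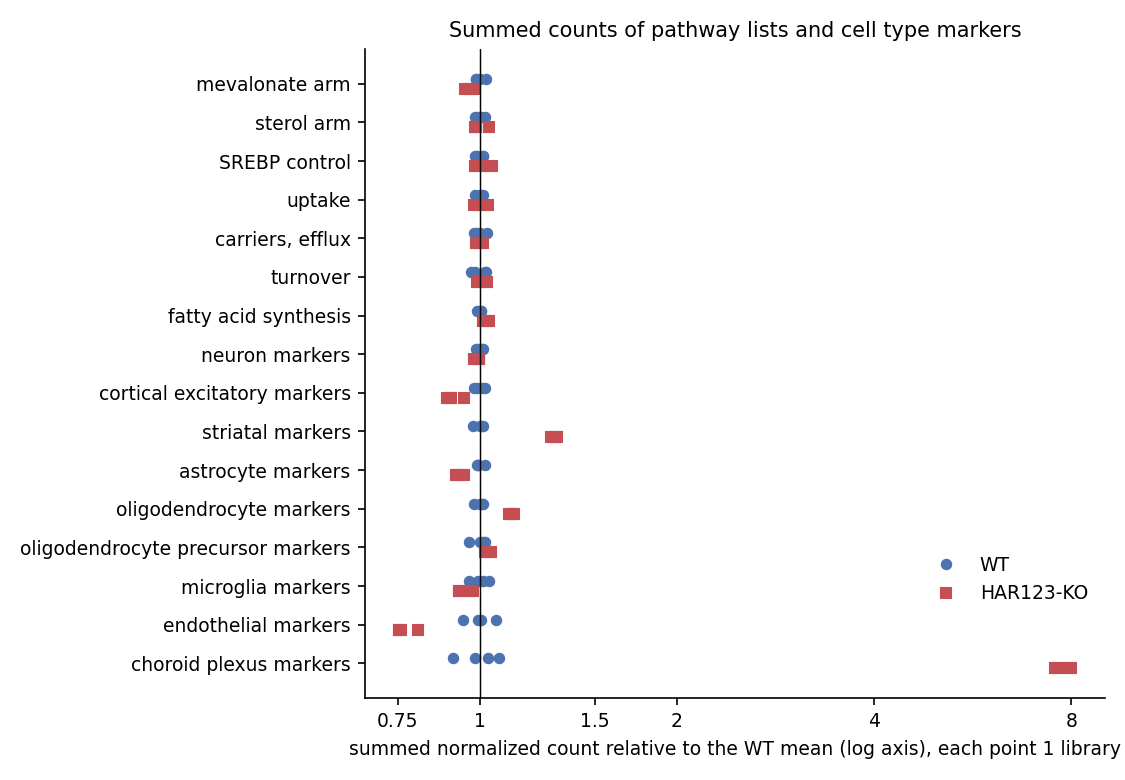
Summed normalized counts of each pathway list and marker list in every library, divided by the WT mean of the list (log axis), with WT as circles and HAR123-KO as squares. The pathway lists stay near 1, while striatal (1.3) and choroid plexus (7.78, or 3.46 without Ttr) markers are higher and endothelial markers (0.768) lower in HAR123-KO.

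As a description of likeness, log2 normalized counts of each of the 7 genes were correlated over the 8 libraries with those of 8806 other protein-coding genes. The closest were Slc38a3 and Rtn4rl2 for Hmgcs1 (Pearson r of 0.966 and 0.96), Arfip2 and Inpp5e for Idi1 (0.976 and 0.964), and Pde5a and Gm42372 for Fdft1 (0.968 and 0.954). For Sqle they were Atf6b and Gtpbp6 (0.962 and 0.951), for Cyp51 Cops6 and Rnf2 (0.948 and 0.922), for Insig1 Zfp651 and Rnf208 (0.942 and 0.932), and for Cyp46a1 Gprin1 and St7l (0.939 and 0.931). No pathway gene was among these 14. The points share the size factors and the genotype difference, and no test was made. As the 2 highest of 8806 values over only 8 libraries were picked, a high r carries little weight.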

How the data were processed

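Total RNA of 8 frontal cortex samples, 4 per genotype, was depleted of ribosomal RNA, made into directional libraries and sequenced as paired ends. The authors aligned reads with STAR 2.5.2b to GRCm38 and summed exon reads by gene in featureCounts, per the study's methods and the submitters' processing notes. The deposited values are raw counts per gene, with 0 other sample columns. Strand and multi-mapping settings are not given in the sources used here. Groups and replicate numbers came from the titles. All 55536 identifiers matched GENCODE M21 of the same build, with equal start and end.

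Genotype was tested across all genes with DESeq2 1.42.0 (R 4.3.3, Wald test, median-of-ratios size factors, default independent filter, Benjamini-Hochberg adjustment). The study also used DESeq2, with a version, size factors and filter not given in the sources used here. The fold limit applied here is that of its frontal cortex gene list, and its general methods state stricter limits. The filter stopped at a mean of 17.6 normalized counts. Intervals are Wald intervals at the 95% level and cover no choice of scaling. Alternatives were edgeR 4.0.16, limma-voom (limma 3.58.1), other size factors and filters, the fold limit, the replicate number as a block and leaving out each library. The fit was tested on simulated data for all 55536 genes, with the same dispersion of 0.002 for every gene. Changes were put into 200 genes averaging 50 or more normalized counts. Of these, 65% of genes changed by 0.5 and 100% of those changed by 1 (log2) were recovered. No smaller change was simulated. Copies were searched with BLAST 2.17.0. The 7 genes and all lists were chosen with earlier results of these data known. Named genes were the 7, called genes of the lists, the gene with the smallest p in each list, the 2 nearest in likeness for each of the 7 (log2 of normalized count plus 1, protein-coding genes averaging 50 or more), and a fixed set that held Srebf2, Srebf1, Apoe, Abca1 and Insig2. Some genes of that set are not reported here. Any other gene is marked in the text as picked with its values in view. The motifs were chosen with the windows in view. Counts are without molecular tags, so counting error is a lower limit on technical error.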

Additional observations from a re-analysis of the deposited data

Results flagged for a closer look

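For 31 genes (those refitted under the alternatives and the pathway and comparison genes named after their values were seen) and 17 list sums, each genotype was searched for 1 library far from the other 3, by Dixon's ratio of gap to range (95% critical value). Among 96 such sets of values 7 were picked out, and 4.8 would be picked by chance, about 1 in 20, so a single case carries little weight. Cyp46a1 had 524 normalized counts in WT replicate 3, against 568 to 571 in the other WT libraries. Scd1 had 673 normalized counts in WT replicate 4, against 564 to 573. Abcg1 had 290 normalized counts in WT replicate 2, against 312 to 315. HAR123-KO replicate 4 accounted for the remaining 4. Ch25h had 2.13 normalized counts there and 0 in the other HAR123-KO libraries, a level too low to read. The summed sterol arm stood at 1975 normalized counts (other HAR123-KO libraries 1883 to 1893), the neuron markers at 30230 (30740 to 30790) and the endothelial markers at 351 (327.5 to 330).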

How the results depend on the processing

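None of the 7 cholesterol genes was called in any of the 16 fits, by any tool, size factor or filter, with the replicate block, or in the 8 fits that each left out 1 library (0 to 0). Over all genes, the count of 215 calls became 331 with edgeR (183 higher and 148 lower), 22 with the replicate block and 38 with the fold limit of 0.5, and it ran from 133 to 185 when 1 library was left out. The single call among pathway genes, Clu, became 0 with the replicate block and 0 with the fold limit, and ran from 0 to 1 when 1 library was left out. The 7 genes and 15 others of the fixed set, smallest p or calls were refitted under 15 alternatives, while the genes named for likeness or after their values were seen were not. Of these 330 pairs of a gene and an alternative, 324 kept their side of the threshold and 6 lost it, 5 of Clu (4 left-out libraries and the block, adjusted p = 1) and 1 of Scd1 (the block, adjusted p = 0.0974). Signs of uncalled genes near 0 changed in some fits, in 3 of 15 alternatives for Cyp51, 2 for Fdft1, 1 for Insig1, 3 for Srebf2 and 1 for Srebf1. The replicate number was not used to pair libraries in the reported values, since the deviations of same-numbered libraries from their genotype means correlated by -0.03 to 0.03 (from -0.0274 to 0.0289, over 4 pairs), and 1 of the 4 WT libraries matched its own number best, so the block result is no measure of a weaker effect. Depth limits what could be seen, as a log2 fold change had standard errors from 0.04 (Hmgcs1) to 0.11 (Idi1), and 8 of the 63 pathway genes were too low to receive an adjusted p.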

Other observations

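Fdps, which makes farnesyl diphosphate between Idi1 and Fdft1 in the pathway, stood at 11.3 ± 2.06 (WT) and 13.1 ± 3.44 (HAR123-KO) normalized counts (SD, n = 4), or 2.69 normalized counts per kb of exon in WT, against 38.8 for Idi1 and 46.4 for Fdft1, its neighbours in the pathway. Copies in 5 pseudogenes covered 76.8% of its longest coding transcript, and the highest of those pseudogenes had a mean of 7.25 raw counts. Whether reads of Fdps were lost to its copies at counting was not tested. Acat2, at the start of the mevalonate arm, shared 65.6% of its longest coding transcript with 2 other genes, Acat3 and Tcp1, so its log2 fold change of 0.10 ± 0.11 (SE) is uncertain as to its source. These genes were named after their values were seen.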
